A study of Mus musculus with 30 samples.

Results

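Expression of 10 genes of the heat shock protein and chaperone families was followed in mouse forelimb buds by polyA RNA-sequencing. The genes were chosen by name (*Hspa1a*, *Hspa1b*, *Hspa8*, *Hsp90aa1*, *Hsp90ab1*, *Hsph1*, *Dnaja1*, *Dnajb1*, *Hspd1* and *Hspe1*), and all 10 were found among the 55052 genes of the FPKM table and the 50833 genes of the count table. WT Swiss Albino embryos were exposed at E10.5, through injection of the pregnant female, to DMSO (the solvent control) or to Wnt-C59 (C59), an inhibitor of porcupine, the enzyme that lipid-modifies WNT proteins before secretion. Forelimb buds were collected 1, 6, 12, 18 and 24 h later, with 3 libraries per treatment and time point, and the study describes each library as RNA from the forelimb bud pair of 1 embryo. By the study's methods the C59 vehicle also held methylcellulose and Tween-20, and controls received DMSO in PBS. The groups thus differ in vehicle as well as in C59. The injection is systemic, so a change in the limb bud need not start there. The labels do not give the litter of an embryo. The study's methods state that replicates of a condition and time point came from at least 3 litters.

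Chaperones bind unfolded or partly folded proteins and help them reach, keep or regain their shape. HSP70 proteins grip short hydrophobic stretches in cycles of ATP binding and hydrolysis, J-domain proteins deliver the clients and start hydrolysis, and nucleotide exchange factors release them, whereas HSP90 acts later on signaling proteins such as kinases and steroid receptors. Inside mitochondria, the HSPD1 barrel and its HSPE1 lid enclose imported proteins. Some family members are made in all growing cells, while others are induced by heat shock factors, which bind arrays of the inverted unit GAA and TTC in promoters of stress-induced genes.

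The genes lie on 7 chromosomes (mm10, coordinates of the deposited table). *Hspd1* (ENSMUSG00000025980, chr1:55077835-55088243, minus strand) and *Hspe1* (ENSMUSG00000073676, chr1:55088132-55091307, plus strand) are arranged head to head and overlap by 112 bases. *Hspa1a* (ENSMUSG00000091971, chr17:34969190-34972156) and *Hspa1b* (ENSMUSG00000090877, chr17:34956436-34959238) are neighbors on the minus strand with 9951 bases between them. *Hsp90ab1* is on the same chromosome (chr17:45567775-45573271). The others are *Hsph1* (chr5:149614287-149636376), *Dnaja1* (chr4:40722480-40737149), *Dnajb1* (chr8:83608193-83612653), *Hspa8* (chr9:40800984-40805200) and *Hsp90aa1* (chr12:110690605-110702728).

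Promoter windows from RefSeq (GRCm38.p6, 250 bases before to 50 after a start) were found for 7 of the 10 genes, as 12 windows, and were searched on both strands. Arrays of 3 units, in which GAA and TTC alternate with 2 free bases between them, occurred in either orientation in 0.603% of all 32851 windows, and among the genes described here in those of *Hspd1*, *Hspe1* and *Hsph1*. The 2-unit arrays GAANNTTC and TTCNNGAA, which overlap the longer ones, occurred in 15.1% of all windows. Of the 7 genes 6 held one in at least 1 of their windows, *Dnajb1* being the exception. Most of the 7 genes have more than 1 window, so counts by gene are not directly comparable with shares of windows. *Hspd1* and *Hspe1* share a single run between their starts, which is shown with its flanks because both genes fell after C59 and *Hspd1* had the largest decrease of the 10. Capitals mark the 18 bases of 5 overlapping matches (chr1:55088053-55088082, plus strand), 35 bases from the annotated start of the main *Hspd1* transcript and 56 bases from that of *Hspe1*.
Hspd1 and Hspe1: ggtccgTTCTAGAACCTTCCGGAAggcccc
Hsph1: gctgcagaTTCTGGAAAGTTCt
The *Hsph1* match (capitals, chr5:149636287-149636308, minus strand) lies after the start. A match is a description of letters and was not tested as a binding site.

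The 250 bases before the starts of *Hspa1b* and *Hspa1a* are printed because they show how closely the pair is related. In *Hspa1b* (chr17:34959239-34959488, minus strand) the capitals mark the 2-unit match, which *Hspa1a* also holds. In *Hspa1a* (chr17:34972157-34972406, minus strand) the capitals mark the only 3 bases that differ from *Hspa1b*.
Hspa1b: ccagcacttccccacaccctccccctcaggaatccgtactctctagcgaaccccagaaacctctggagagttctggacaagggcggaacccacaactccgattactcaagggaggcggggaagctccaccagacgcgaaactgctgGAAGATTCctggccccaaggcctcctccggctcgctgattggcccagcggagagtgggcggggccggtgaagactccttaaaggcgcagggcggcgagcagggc
Hspa1a: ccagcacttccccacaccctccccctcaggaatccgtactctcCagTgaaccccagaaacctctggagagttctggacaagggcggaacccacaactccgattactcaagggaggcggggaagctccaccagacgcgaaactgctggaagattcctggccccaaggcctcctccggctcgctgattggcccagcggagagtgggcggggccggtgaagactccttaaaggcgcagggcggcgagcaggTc
Their coding sequences were 99.4% identical, with 11 differing positions. Of all 150-base windows of the *Hspa1b* transcript, 40.5% occur unchanged in *Hspa1a*, so reads from one of them cannot always be told from reads of the other. Annotated transcripts of other genes, in either orientation, also share 56.0% of such windows of *Hspa8*, 36.2% of *Hsp90aa1*, 20.0% of *Dnaja1*, 18.6% of *Hspd1* and 14.1% of *Hspe1*. Whether those transcripts overlap the same locus was not checked. Levels can depend on how the authors' counting treated reads from shared windows. No window was shared for *Hsp90ab1*, *Hsph1* and *Dnajb1*.

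The libraries held 18188636 to 38974885 counts. *Axin2*, a direct target of WNT signaling, served as check of the treatment: it lay at 29.0, 29.2 and 26.5 CPM (counts scaled to library size) 6 h after C59 and at 108, 118 and 104 CPM in DMSO controls, and the groups still did not overlap at 12 h (38.9, 38.6 and 43.7 against 112, 110 and 110 CPM). All 6 markers of limb bud mesenchyme were expressed in every group. Pairs of libraries of 1 group differed in their counts by 3.49 to 46.6 times the sampling variance, and C59 18 h replicate 3 stood apart (43.2 and 36.4 times against replicates 1 and 2, which differed by 4.37). C59 24 h replicate 2 and the first DMSO libraries of 1, 6 and 18 h were also set apart from their groups, by 22.9 to 46.6 times. Of the markers of other cell types only *Hba-a2*, a globin, was at 0 in any group (DMSO 1 h, DMSO 6 h and C59 12 h). Summed FPKM of 4 Y-linked genes was 0 in the 3 DMSO libraries of 6 h and 19.8 to 33.2 in the 3 C59 libraries, so at 6 h embryo sex and treatment cannot be told apart, and at 1 h the sums also did not overlap (21.2 to 38.2 in C59, 0.0469 to 9.03 in DMSO). The samples are whole limb buds, in which fewer cells of a type and less RNA per cell cannot be told apart.

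The genes spanned a wide range of expression, from a major transcript of the limb bud to genes at the edge of detection. Levels between genes are compared per length, in FPKM (fragments per kilobase of transcript, scaled to the mapped fragments of a library). *Hsp90ab1*, the constitutive cytosolic HSP90, was highest in each of the 30 libraries (921 to 1404 FPKM), and *Hspa8*, the constitutive cytosolic HSP70, came next in each of them (369 to 684 FPKM). *Hsp90aa1*, the more inducible HSP90 (143 to 378 FPKM), *Hspe1* (158 to 343 FPKM) and *Hspd1* (116 to 298 FPKM) overlapped in range and exchanged places. *Dnaja1* (87.9 to 146 FPKM), *Hsph1* (28.8 to 60.1 FPKM) and *Dnajb1* (17.7 to 28.0 FPKM) kept the same order in every library. The stress-inducible pair was lowest, with *Hspa1b* at 0.163 to 0.928 FPKM and *Hspa1a* at 0.0441 to 0.417 FPKM. This corresponds to 19 to 85 counts of *Hspa1b* and 0 to 20 counts of *Hspa1a* per library, so that *Hspa1a* was near the limit of detection. Its FPKM, which the authors computed with a correction for reads that map to several places, was above 0 also in libraries with a count of 0.

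**Figure D1:**
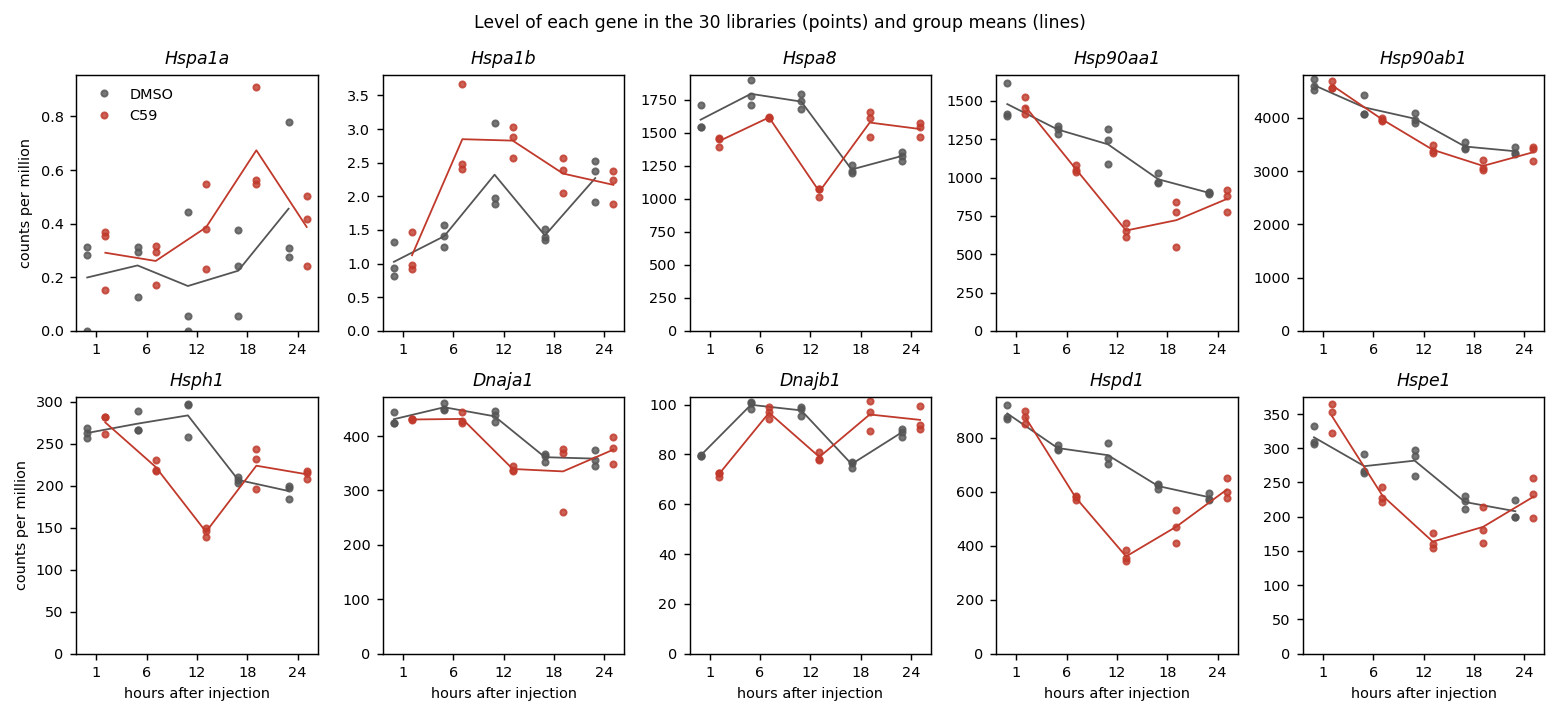
CPM (y axis, from 0) of the 10 genes against hours after injection, with 1 point per library and lines through the means of the 3 DMSO (grey) and 3 C59 (red) libraries. At 12 h the C59 line lies below the DMSO line except for *Hspa1a* and *Hspa1b*, and at 24 h the lines of most genes are close.

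In controls, 7 of the 10 genes were lower at the end of the day than at its start. Between DMSO 1 h and DMSO 24 h all 9 genes tested passed (Benjamini-Hochberg adjusted p below 0.05 in the quasi-likelihood test of edgeR), 7 lower and 2 higher. Of all 13580 genes tested 59.3% passed, 29.2% as lower and 30.2% as higher. *Hsp90aa1* fell from 1619, 1405 and 1414 CPM to 908, 901 and 895 CPM (log2 -0.72 ± 0.05 SE, adjusted p by edgeR 4.41e-08). *Hspd1* fell from 922, 879 and 870 CPM to 570, 597 and 575 CPM (log2 -0.62 ± 0.04), and *Hspe1* from 306, 333 and 310 CPM to 199, 225 and 200 CPM (log2 -0.60 ± 0.05). For these genes every library of 24 h was below every library of 1 h. The decreases of *Hsp90ab1* (log2 -0.45), *Hsph1* (-0.44), *Hspa8* (-0.27) and *Dnaja1* (-0.27) were smaller. *Dnajb1* rose slightly, from 79.6, 80.0 and 79.2 CPM to 89.1, 87.2 and 90.4 CPM (log2 0.16 ± 0.04). *Hspa1b* rose from 0.938, 1.32 and 0.818 CPM to 2.52, 1.91 and 2.38 CPM (log2 1.16 ± 0.27, adjusted p by edgeR 0.00181), which is a change between 71 and 158 counts summed over 3 libraries. It was the only gene of the 10 to pass the rule of the study, which also asks for a log2 fold change beyond 1 and called 12.0% of all genes tested here. *Hspa1a* was below the filter on low counts and was not tested. Summed FPKM of cell type markers also differed between DMSO 1 h and DMSO 24 h without overlap, for muscle (13.8 to 21.4 and 187 to 227), surface ectoderm (73.2 to 90.0 and 131 to 137) and macrophages (5.42 to 6.15 and 11.8 to 13.6), and their part in these changes was not tested.

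After C59 most of these genes were lower at 6 h and 12 h, and few or none passed the test at 1, 18 and 24 h. At 1 h none of the 9 genes tested passed in edgeR, where 2.75% of all 13076 genes did. At that time 3 of the 9 had an unadjusted p below 0.05 (17.0% of all genes), DESeq2 called 1, *Hspa8*, and limma on FPKM called 0. At 6 h 6 of 9 passed (19.6% of 13100 genes), 5 of them lower and *Hspa1b* higher, where 11.4% of all genes were lower and 8.20% higher. At 12 h 8 of 9 passed (47.5% of 13324 genes), all of them lower, where 25.5% of all genes passed as lower. At 18 h 2 of 10 passed, both higher (7.08% of 13413 genes, 3.46% as higher), and at 24 h none of 10 passed in edgeR (6.44% of 13675 genes). Of the 10, 2 had an unadjusted p below 0.05 at 24 h (22.1% of all genes), DESeq2 called 1, *Hspa8*, and limma called 0. The median log2 fold change over the genes tested was -0.00088 at 1 h and -0.16 at 6 h. It was -0.72 at 12 h, 0.02 at 18 h and 0.07 at 24 h, beside medians over all genes tested of at most 0.02 in size. *Hspa1a* passed the count filter only at 18 h and 24 h. The medians of these times are therefore over 10 genes and the earlier ones over 9. At 18 h the genes were split, 5 above 0 and 5 below, from -0.44 (*Hsp90aa1*) to 1.56 (*Hspa1a*). The rule of the study, applied to the edgeR fits, called *Hspa1b* at 6 h, where it called 1.17% of all genes, and *Hspd1* at 12 h, where it called 4.95%. *Hspa1b* was barely beyond the fold threshold (log2 1.0016).

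**Figure D2:**
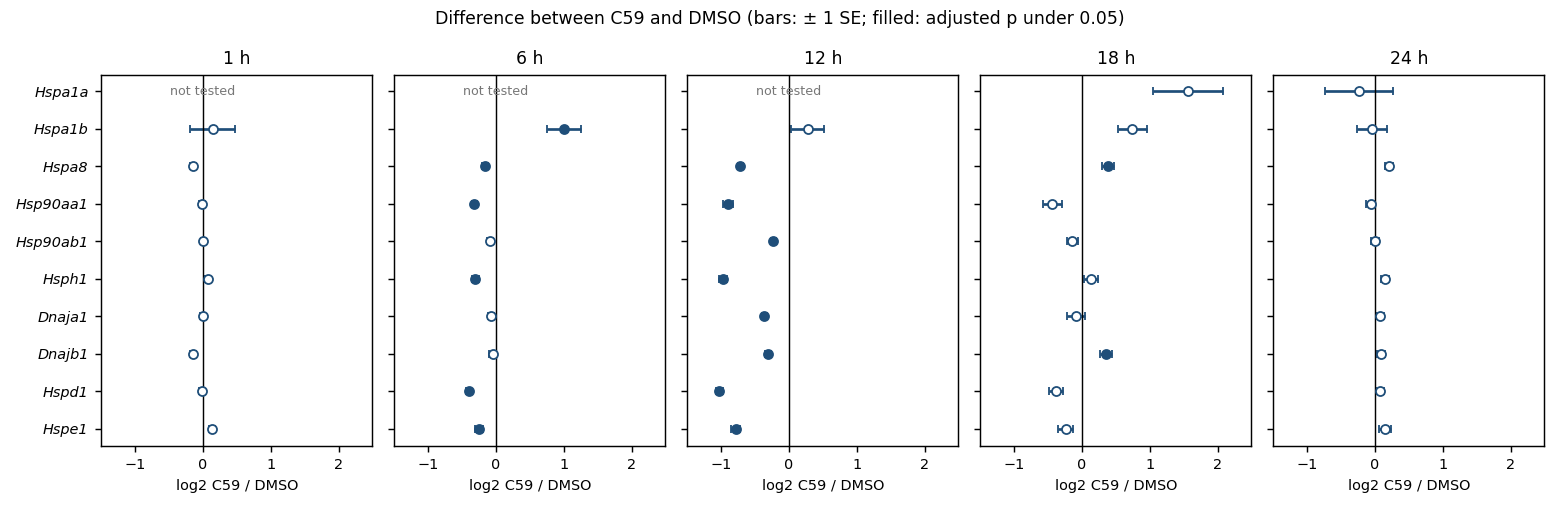
Log2 ratio of C59 to DMSO (x axis, bars ± 1 SE, n = 3 libraries per group) for the 10 genes at each of the 5 time points, with filled points where the edgeR adjusted p was below 0.05. The filled points are below 0 for 8 genes at 12 h and none is filled at 1 h or 24 h.

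The difference between C59 and DMSO itself changed with time. Tested as a contrast of effects over 12 libraries, it was further below 0 at 12 h than at 6 h for 7 of 9 genes (18.1% of 13565 genes passed, 11.5% in that direction), with log2 changes from -0.26 ± 0.06 (*Dnajb1*) to -0.66 ± 0.08 (*Hsph1*). *Hsp90ab1* (log2 -0.14, adjusted p by edgeR 0.0659) and *Hspa1b* did not pass. From 12 h to 24 h it moved upward for 8 of 10 genes (36.9% of 13798 genes passed, 19.2% in that direction), between 0.22 ± 0.07 for *Hsp90ab1* and 1.11 ± 0.09 for *Hsph1*, while *Hspa1a* and *Hspa1b* did not pass. The rule of the study called *Hspd1* and *Hsph1* in the second contrast, as 5.83% of all genes. Both contrasts use the 12 h libraries, so a 12 h library that is off moves them in opposite directions. The 6 h groups also differed in Y-linked sums (0 FPKM in DMSO, 19.8 to 33.2 in C59). In the contrast from 6 h to 12 h a change of the C59 effect therefore cannot be told apart from embryo sex.

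Both mitochondrial chaperonin genes were lower at 6 h and 12 h, and *Hspd1* had the largest decrease of the 10 genes at 12 h. *Hspd1*, which encodes the chaperonin barrel, was at 582, 568 and 585 CPM after C59 and 774, 758 and 756 CPM in DMSO at 6 h, and at 355, 343 and 383 CPM against 724, 703 and 780 CPM at 12 h. The groups were far apart at both times (log2 -0.40 ± 0.04, adjusted p 1.58e-05, and log2 -1.03 ± 0.05, adjusted p 5.54e-07, edgeR). At 24 h the C59 libraries, with 577, 650 and 597 CPM, overlapped the DMSO libraries (log2 0.07 ± 0.06, adjusted p by edgeR 0.53). *Hspe1*, which encodes the lid, was at 222, 244 and 227 CPM against 264, 266 and 292 CPM at 6 h (log2 -0.25 ± 0.05) and at 160, 155 and 176 CPM against 288, 260 and 298 CPM at 12 h (log2 -0.79 ± 0.06, adjusted p by edgeR 5.60e-06). It also overlapped its controls at 24 h. At 18 h *Hspd1* was at 534, 468 and 410 CPM against 611, 624 and 628 CPM, a difference without overlap that did not pass (log2 -0.38 ± 0.11, adjusted p by edgeR 0.066).

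*Hspd1* and *Hspe1* lie head to head, and their levels were compared within each library. Their ratio ran from 0.639 to 1.10 in FPKM over 30 libraries with a median of 0.874. The lowest ratio was that of C59 18 h replicate 3 and the highest that of C59 24 h replicate 2. In the C59 libraries of 12 h the ratio was 0.746, 0.737 and 0.727, below the 0.830, 0.897 and 0.864 of the DMSO libraries without overlap. Reads from the 112 bases in which the genes overlap cannot be assigned without strand, and the strand of counting was not stated. Over the 30 libraries, which differ together in time and treatment, log2 CPM of *Hspd1* and *Hspe1* had a Pearson correlation of 0.91, which ranked *Hspe1* 326 of 14038 genes by likeness to *Hspd1*. The 5 genes most like *Hspd1* were *Cnbp* (0.985), *Hspa9* (0.984), *Rars* (0.983), *G3bp1* (0.982) and *Hsd17b12* (0.976).

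**Figure D3:**
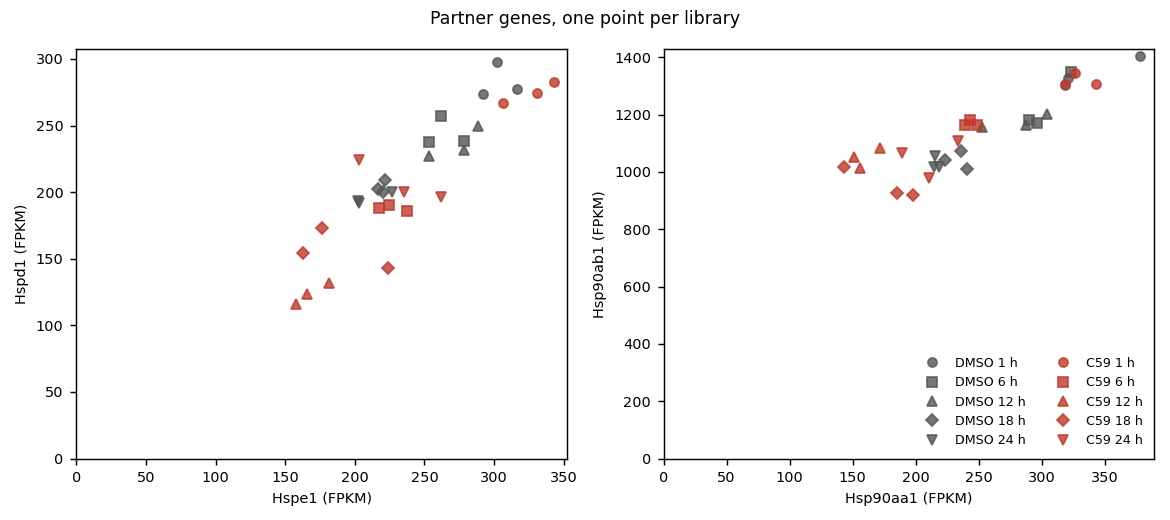
FPKM of *Hspd1* against *Hspe1* (left) and of *Hsp90ab1* against *Hsp90aa1* (right), with 1 point per library, grey for DMSO and red for C59, and a symbol per time point. The C59 12 h libraries lie at the lower left for *Hspd1* and *Hspe1*, and for the HSP90 genes *Hsp90aa1* spans a wider relative range than *Hsp90ab1*.

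Both HSP90 genes were lower at 12 h. *Hsp90aa1* was at 1081, 1038 and 1050 CPM after C59 against 1336, 1319 and 1287 CPM in DMSO at 6 h, and at 610, 649 and 705 CPM against 1246, 1092 and 1314 CPM at 12 h. All C59 libraries were below all DMSO libraries (log2 -0.32 ± 0.04 and -0.90 ± 0.07, adjusted p 0.000109 and 5.04e-06, edgeR). *Hsp90ab1* was at 3381, 3331 and 3487 CPM against 3967, 3896 and 4089 CPM at 12 h, a smaller decrease without overlap (log2 -0.23 ± 0.03, adjusted p by edgeR 0.000308). At 6 h its difference did not pass (log2 -0.09 ± 0.04, adjusted p by edgeR 0.18). The FPKM ratio of *Hsp90ab1* to *Hsp90aa1* was 6.98, 6.49 and 6.32 in C59 at 12 h and 4.05, 4.59 and 3.96 in DMSO. At 18 h *Hsp90aa1* was at 840, 778 and 549 CPM against 967, 1030 and 970 CPM, lower in every C59 library but with a wide spread (log2 -0.44 ± 0.15, adjusted p by edgeR 0.11). The lowest of these values belongs to replicate 3, and without that library the difference was smaller and passed (log2 -0.28 ± 0.06, adjusted p by edgeR 0.0168).

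*Hspa8* was below its controls at 12 h and above them at 18 h, where the call depended on single libraries. It was at 1622, 1615 and 1611 CPM after C59 against 1897, 1779 and 1708 CPM in DMSO at 6 h (log2 -0.16 ± 0.04, adjusted p by edgeR 0.0252), a small difference that no longer passed once the first DMSO library or any of the C59 libraries was left out (adjusted p by edgeR 0.0651 to 0.0930) or with limma on FPKM (adjusted p 0.22). At 12 h it was at 1075, 1014 and 1075 CPM against 1738, 1679 and 1791 CPM (log2 -0.72 ± 0.04, adjusted p by edgeR 6.78e-07). At 18 h the C59 libraries, with 1610, 1468 and 1655 CPM, were all above the DMSO libraries, with 1259, 1194 and 1213 CPM (log2 0.39 ± 0.09, adjusted p by edgeR 0.0333). This call was lost without any one of 5 libraries (adjusted p by edgeR 0.0602 to 0.161), although the log2 difference stayed at 0.37 to 0.44. The DMSO mean was 1736 CPM at 12 h and 1222 CPM at 18 h, and the C59 mean was 1055 CPM at 12 h and 1578 CPM at 18 h. At 24 h C59 libraries were still above all controls (1547, 1571 and 1467 against 1288, 1327 and 1358 CPM), a difference that narrowly missed the threshold (log2 0.21 ± 0.06, adjusted p by edgeR 0.0535).

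Both J-domain genes were lower at 12 h. *Dnaja1*, a farnesylated J-domain protein of the cytosol, was at 338, 335 and 345 CPM after C59 and 446, 425 and 438 CPM in DMSO at 12 h (log2 -0.36 ± 0.04, adjusted p by edgeR 3.15e-05). *Dnajb1*, the J-domain partner of HSP70 in protein disaggregation, was at 80.9, 77.9 and 78.3 CPM against 99.1, 95.6 and 98.5 CPM at 12 h (log2 -0.31 ± 0.05, adjusted p by edgeR 0.000311). Neither passed at 6 h (log2 -0.08 and -0.05). Like *Hspa8*, *Dnajb1* was higher at 18 h. It was at 97.1, 89.6 and 102 CPM after C59, above the 77.1, 76.7 and 74.6 CPM of DMSO (log2 0.35 ± 0.09, adjusted p by edgeR 0.0462), a call also lost without any one of 5 libraries. *Dnaja1* at 18 h was at 376, 368 and 261 CPM against 353, 363 and 367 CPM, so that 1 library, again replicate 3, was far below the rest.

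*Hsph1*, an HSP110 protein that releases nucleotide from HSP70, had a change at 12 h close to that of *Hspd1*. It was at 146, 139 and 150 CPM after C59 against 297, 258 and 296 CPM in DMSO (log2 -0.97 ± 0.06, adjusted p by edgeR 1.42e-06), a decrease already present at 6 h (219, 218 and 231 against 266, 289 and 266 CPM, log2 -0.31 ± 0.05). At 24 h its C59 libraries were slightly above the DMSO libraries without overlap (217, 208 and 215 against 199, 184 and 197 CPM), but the difference did not pass (log2 0.15 ± 0.06, adjusted p by edgeR 0.14). No overlap in that direction was seen in 12.8% of all genes at 24 h.

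Of the inducible HSP70 genes, *Hspa1b* was higher at 6 h. It was at 3.67, 2.40 and 2.48 CPM after C59 and 1.58, 1.41 and 1.24 CPM in DMSO at 6 h, and its groups did not overlap (log2 1.00 ± 0.25, adjusted p by edgeR 0.0135). These values rest on 85, 49 and 55 counts against 38, 27 and 21 counts. The difference no longer passed once C59 6 h replicate 1 (adjusted p by edgeR 0.0828) or the third DMSO library (0.0517) was left out. In these 2 fits the log2 difference was 0.78 and 0.92. At 12 h the groups overlapped, with 2.89, 2.56 and 3.04 CPM against 3.09, 1.89 and 1.98 CPM (log2 0.27 ± 0.24). At 18 h the C59 libraries were again higher (2.57, 2.05 and 2.40 against 1.51, 1.39 and 1.35 CPM), without passing (log2 0.74 ± 0.22, adjusted p by edgeR 0.0752). *Hspa1a* at 18 h had 12, 11 and 19 counts after C59 and 1, 9 and 7 counts in DMSO (log2 1.56 ± 0.52, adjusted p by edgeR 0.11), and it passed the count filter at that time through the higher C59 group. At 24 h neither gene differed beyond its spread. The 5 genes most like *Hspa1b* over the 30 libraries were *Ypel2* (Pearson correlation of log2 CPM 0.854), *Bcl9l* (0.823), *Smim14* (0.814), *Ddit4* (0.810) and *Stom* (0.809).

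At 18 h the calls depended on single libraries. With all 6 libraries *Hspa8* and *Dnajb1* passed, and without C59 18 h replicate 3 the number was 7, with *Hspa8*, *Dnajb1* and *Hsph1* higher and *Hsp90aa1*, *Hsp90ab1*, *Hspd1* and *Hspe1* lower. Without any one of the other 5 libraries neither *Hspa8* (adjusted p by edgeR 0.0602 to 0.161) nor *Dnajb1* (0.0872 to 0.207) passed. The log2 differences changed little in these fits (*Hspa8* 0.37 to 0.44, *Dnajb1* 0.34 to 0.40). Without C59 18 h replicate 1 *Hspd1* passed (log2 -0.48, adjusted p by edgeR 0.0411). DESeq2 on all 6 libraries called 3 genes and limma 0. The summed FPKM of 8 immediate early genes, which respond to handling of tissue, was also higher in C59 at 18 h (111 to 126) than in DMSO (78.5 to 93.7), as it was at 12 h (95.8 to 120 against 91.8 to 93.8) and at 24 h (87.3 to 95.7 against 81.7 to 84.9). At 18 h the mesenchyme sum was lower in C59 (461 to 488 against 494 to 531 FPKM) and the surface ectoderm (134 to 172 against 102 to 112) and macrophage sums (13.2 to 17.9 against 10.1 to 11.6) were higher. The part of these shifts in the 12 h, 18 h and 24 h results was not tested.

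At 12 h, markers of the cell types of the limb bud also differed between C59 and DMSO, in both directions. Summed FPKM of the 6 mesenchyme markers was 378 to 390 in C59 and 542 to 570 in DMSO. The sums were higher in C59 for 7 surface ectoderm markers (141 to 193 against 93.1 to 109), 6 muscle markers (90.2 to 115 against 32.1 to 63.5), 5 endothelial markers (67.5 to 73.7 against 51.5 to 57.0) and 5 macrophage markers (12.4 to 13.3 against 6.77 to 7.34). The sum of 8 erythroid markers overlapped between groups. At 6 h the mesenchyme sum was also lower in C59 (376 to 394 against 538 to 577) and the muscle sum higher (35.2 to 47.6 against 24.9 to 26.3). The part of these shifts in the chaperone results was not tested.

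Other genes of the chaperone network were taken from 10 lists with 79 genes, none of them among the 10 described so far. At 6 h 27 of 73 genes tested passed (25 lower, 2 higher, where 19.6% of all genes passed) and at 12 h 53 of 74 (47 lower, 6 higher, where 47.5% of all genes passed). At 18 h 4 of 74 passed (7.08% of all genes) and at 24 h 4 of 76, all 4 higher (6.44% of all genes), counts near the share over all genes. At 1 h none of 73 passed in edgeR, 20 had an unadjusted p below 0.05 (17.0% of all genes), and neither DESeq2 nor limma called any. The median log2 fold change over the lists was -0.31 at 12 h, beside 0.02 over all genes tested.

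The HSP90 co-chaperones, which load clients on HSP90 or time its cycle, had the lowest median at 12 h (log2 -0.58), with 8 of 10 lower and none higher. Of all genes tested 25.5% passed as lower at 12 h and 11.4% at 6 h. *Fkbp5*, an immunophilin of steroid receptor complexes, was at 65.1, 65.8 and 68.9 CPM after C59 against 125, 123 and 129 CPM in DMSO (log2 -0.91 ± 0.05, adjusted p by edgeR 5.54e-07). All 7 tested subunits of the CCT chaperonin, which folds actin and tubulin, were lower at 6 h (median -0.18) and at 12 h (median -0.42), with *Cct3* at 340, 328 and 340 CPM against 533, 508 and 537 CPM at 12 h (log2 -0.65 ± 0.04). The prefoldins, which hand clients to CCT, gave 3 of 5 lower and 1 higher at 12 h, from *Pfdn6* (log2 -0.58) to *Pfdn5* (0.15). Of the HSP70 co-chaperones 6 of 8 were lower at 12 h, most of all *Bag5* (log2 -0.44). In these lists every gene that changed at 12 h fell, except *Pfdn5*, which no longer passed without DMSO 12 h replicate 2 (adjusted p by edgeR 0.0872).

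Chaperones of organelles were lower as well at 12 h, when 47.5% of all genes passed, 25.5% as lower. Of 10 mitochondrial genes 6 passed, all lower, led by *Hspa9*, the HSP70 of the mitochondrial matrix, at 321, 307 and 316 CPM against 535, 508 and 537 CPM (log2 -0.74 ± 0.04, adjusted p by edgeR 6.45e-07). Of 12 genes of the endoplasmic reticulum 11 were lower (median -0.39), although at 6 h only *Sdf2l1*, a partner of the ER-resident J-domain proteins, passed, and it was higher. *Sdf2l1* was at 33.1, 34.1 and 37.1 CPM against 28.6, 28.9 and 29.0 CPM at 6 h (log2 0.26 ± 0.07) and at 18.7, 18.0 and 18.5 CPM against 29.3, 30.6 and 31.5 CPM at 12 h (log2 -0.73 ± 0.07). Its groups did not overlap at either time, and the difference at 6 h no longer passed without C59 6 h replicate 3 (adjusted p by edgeR 0.0567).

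Among J-domain proteins of the cytosol and nucleus, 3 of 7 were lower at 12 h, *Dnaja2* the most (log2 -0.43), whereas *Dnajb4* was higher at 43.8, 43.7 and 46.9 CPM against 24.5, 25.2 and 21.6 CPM (log2 0.91 ± 0.07, adjusted p by edgeR 4.46e-06). The 4 of 7 that passed are near the 47.5% of all genes that passed at 12 h. *Hsf1*, the main heat shock factor, was lower at 6 h (log2 -0.22) and 12 h (log2 -0.34 ± 0.06, adjusted p by edgeR 0.00139), and *Hsbp1*, a heat shock factor binding protein, higher at 12 h (0.15). Of the HSP70 relatives 3 of 8 passed at 12 h, also near the 47.5% of all genes, with a list median of 0.12. *Hspa4* fell at 6 h (log2 -0.29) and at 12 h (-0.54), *Hspa14* at 6 h (-0.19) and at 12 h (-0.54), and *Hspa12b* rose at 12 h (0.15). *Hspa14* was named here after its values were seen. The calls of *Hsf1* at 6 h and of *Hspa12b* at 12 h were lost without 3 and 4 of the 6 libraries, taken 1 at a time (adjusted p by edgeR 0.0612 to 0.0730 and 0.0545 to 0.157).

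The small heat shock proteins, ATP-independent holdases, several of which are abundant in muscle, included the genes that rose most. *Cryab* was at 2.56, 2.06 and 1.89 CPM after C59 against 0.699, 1.56 and 0.566 CPM at 12 h (log2 1.20 ± 0.36, adjusted p by edgeR 0.0192) and at 8.54, 9.85 and 11.6 CPM against 5.20, 4.49 and 4.72 CPM at 24 h (log2 1.06 ± 0.14, adjusted p by edgeR 0.00124). *Hspb3* had 37, 44 and 38 counts after C59 and 10, 13 and 20 counts in DMSO at 24 h (log2 1.47 ± 0.30). *Cryab* at 12 h no longer passed without any one of 3 libraries (DMSO 12 h replicates 1 and 3 and C59 12 h replicate 1, adjusted p by edgeR 0.0540 to 0.0776), nor *Hspb3* at 24 h without DMSO 24 h replicate 1 or 2 (0.0641 and 0.0601). Summed FPKM of the 6 muscle markers was also higher in C59 at 24 h (256 to 318 against 187 to 227), and its part in these results was not tested. At 18 h *Hspb1* was higher (log2 0.57) and *Hspb8* (-0.61), *Stip1* (-0.33) and *Cct8* (-0.34) were lower, and each of these calls was lost without any one of 4 or 5 libraries. *Hspb8* had also been lower at 6 h (log2 -0.30), a call lost without any one of 5 libraries. The remaining genes that passed at 24 h were *Stub1* (log2 0.29) and *Dnajb11* (0.25), which lost their calls without 5 and 4 of the 6 libraries, taken 1 at a time. At 6 h the genes with the largest change in 1 direction within their own list also included *Ppid* (log2 -0.35), *Cct3* (-0.34), *Hspa9* (-0.40), *Pfdn4* (-0.28), *Dnaja2* (-0.25), *Bag5* (-0.24) and *Dnajb4* (0.44).

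**Figure D4:**
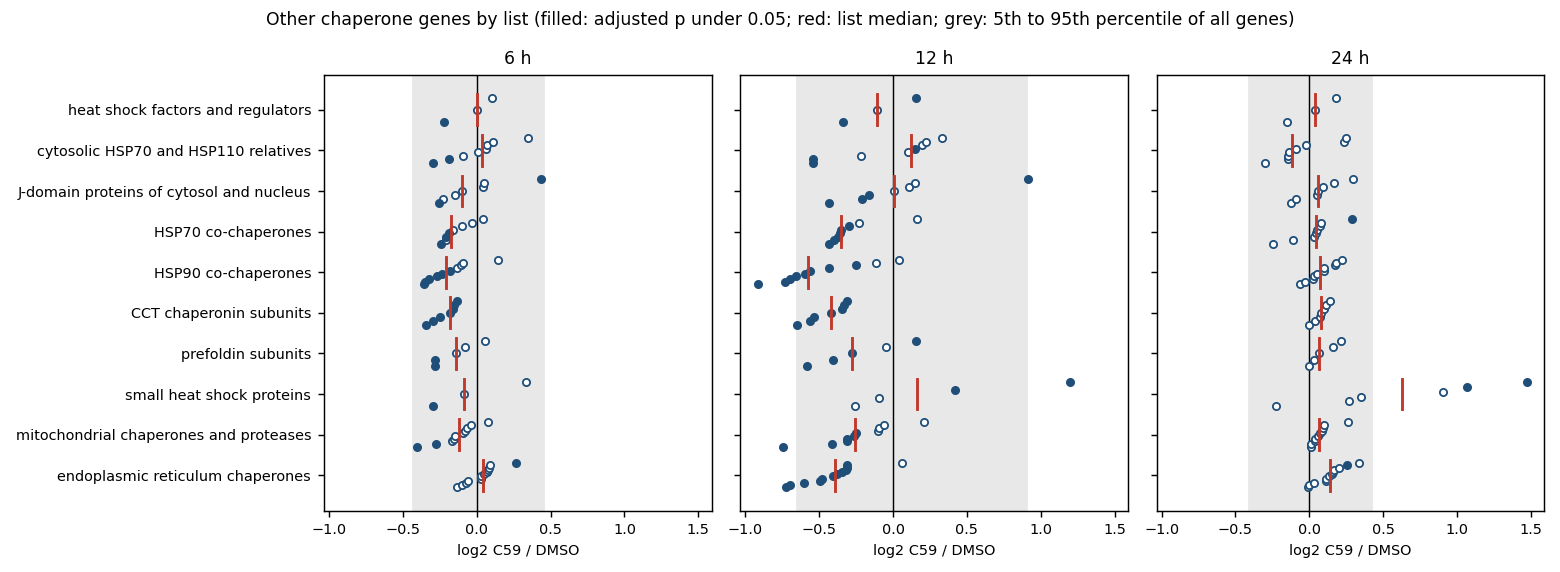
Log2 ratio of C59 to DMSO (x axis) for the tested genes of 10 chaperone lists (rows) at 6, 12 and 24 h, with filled points for an edgeR adjusted p below 0.05, red bars at list medians and a grey band from the 5th to the 95th percentile of all genes tested. At 12 h the medians of the HSP90 co-chaperones (-0.58), the CCT subunits (-0.42) and the endoplasmic reticulum genes (-0.39) are left of 0 and most of their points are filled, while at 24 h few points are filled.

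In DMSO controls from 1 h to 24 h, 52 of 75 list genes tested passed, 39 lower and 13 higher, where 59.3% of all genes passed, 29.2% as lower and 30.2% as higher. The CCT subunits (7 of 7 lower, median -0.34) and HSP90 co-chaperones (9 of 10 lower, median -0.35) declined, with *Cct3* at log2 -0.40, *Fkbp4* at -0.53 and *Unc45a* as the co-chaperone that rose (0.12), a call lost without any one of 5 libraries (adjusted p by edgeR 0.0535 to 0.160). Decreases led the mitochondrial list (7 of 10, *Hspa9* -0.46), the prefoldins (4 of 5, *Pfdn6* -0.43) and the HSP70 co-chaperones (4 of 8, *Stub1* -0.32). Of the small heat shock proteins 2 of 5 tested passed, *Cryab* and *Hspb3*, both higher (list median 0.36). These 2 genes passed the count filter only through the 24 h group, so a rise was the only call they could give. The other 4 lists held changes in both directions, with *Hsf1* (-0.27) against *Hsbp1* (0.22), *Hspa14* (-0.39) against *Hspa12a* (0.81), *Dnajb6* (-0.35) against *Dnajb4* (1.05) and *Sdf2l1* (-0.19) against *Dnajb9* (0.40). *Cryab* rose from 8, 3 and 7 counts to 101, 115 and 119 counts (log2 4.21 ± 0.28), beside the muscle marker sum of 13.8 to 21.4 FPKM at 1 h and 187 to 227 FPKM at 24 h. *Hspb3* had 1 count over the 3 libraries of 1 h and 43 counts over those of 24 h. The ratio of these sums, each scaled to the summed library sizes, was 43.4 (exact 95% interval 7.38 to 1753, which covers counting error only). The call of *Sdf2l1* was lost without any one of 4 libraries (adjusted p by edgeR 0.0903 to 0.141). The comparisons of C59 with DMSO at 1 h and at 24 h use the same DMSO libraries as this one.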

How the data were processed

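PolyA RNA-sequencing was performed by the authors on 30 libraries, in 10 groups of 3. Per the submitters' processing notes and the study's methods, reads were trimmed with cutadapt 1.16 and mapped with STAR 2.7.0e to mm10. The deposited counts are raw fragment counts per gene from STAR and hold no genes of chromosomes X, Y and M. The deposited FPKM values were computed by the authors with Cufflinks 2.2.1, with correction for multi-mapped reads and bias. Strand was not used for FPKM and is not given for the counts in the sources used here.

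Protein-coding genes (20569, GENCODE M21 types) were tested with edgeR 4.0.16 in R 4.3.3 (TMM scaling, filterByExpr with a minimum of 10 per library and 15 in total, quasi-likelihood test), on the libraries of each comparison alone, with Benjamini-Hochberg adjustment over all genes tested. A gene passed at an adjusted p below 0.05. The rule of the study also asks for a log2 fold change beyond 1. The study applied it to DESeq2 results, and here it was applied to the edgeR fits. CPM values are counts divided by TMM-scaled library sizes over the 30 libraries, and errors of log2 fold changes are standard errors. Intervals cover counting error only. Scripts were tested on simulated counts.

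Alternatives were DESeq2 1.42.0, its size factors, no filter, all genes of the table, 1 fit of the 30 libraries, limma 3.58.1 on log2(FPKM + 1) or log2(FPKM + 0.1) for genes with a mean FPKM of at least 1 or without that filter, a block for the replicate number, and omission of each library in turn.

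The 10 genes and the lists were chosen with earlier results of these data known. The text names the 10 genes, *Axin2*, list genes called by the rule of the study, the passing gene with the largest change in each direction per list and comparison, and the 5 genes most like *Hspd1* and *Hspa1b*.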

Additional observations from a re-analysis of the deposited data

Results flagged for a closer look

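These results are listed because the difference between C59 and DMSO was itself different at 2 time points, by a contrast of the effects over 12 libraries (quasi-likelihood test of edgeR, adjusted p below 0.05 after Benjamini-Hochberg over all genes). Values are changes of the log2 difference, and both contrasts rest on the same 12 h libraries. In the contrast from 6 h to 12 h a change of effect cannot be told apart from embryo sex, which differed between the 6 h groups.

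From 6 h to 12 h the difference moved downward for *Hspa8* (-0.56), *Hsp90aa1* (-0.58), *Hspd1* (-0.63), *Hspe1* (-0.54), *Hsph1* (-0.66), *Dnaja1* (-0.29) and *Dnajb1* (-0.26). Of the chaperone lists 29 of 74 genes passed, 28 of them downward, where 18.1% of all genes passed and 11.5% moved downward. The genes with the largest change of their list were *Sdf2l1* (-0.99), *Fkbp5* (-0.60), *Pfdn6* (-0.45), *Cct8* (-0.37), *Hspa14* (-0.36) and *Hspa9* (-0.34), and *Dnajb4* moved upward (0.47). *Sdf2l1*, above its controls at 6 h and below them at 12 h, had the largest of these changes (adjusted p by edgeR 3.79e-06).

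From 12 h to 24 h the difference moved upward for *Hspa8* (0.93), *Hsp90aa1* (0.83), *Hsp90ab1* (0.22), *Hspd1* (1.10), *Hspe1* (0.93), *Hsph1* (1.11), *Dnaja1* (0.43) and *Dnajb1* (0.39). Of the lists 51 of 76 genes passed, 47 of them upward, where 36.9% of all genes passed and 19.2% moved upward. Among the 47 were *Fkbp5* (1.09), *Sdf2l1* (1.05), *Hspa9* (0.81), *Pfdn6* (0.79), *Cct3* (0.78), *Hspa14* (0.77), *Stub1* (0.66), *Hspb8* (0.52), *Hsf1* (0.51) and *Dnaja2* (0.48). *Dnajb4* (-1.01), *Hspa12a* (-0.64) and *Bag3* (-0.28) moved downward. The call of *Bag3* was lost without any one of 9 of the 12 libraries (adjusted p by edgeR 0.0701 to 0.129), and that of *Hspb8* without any one of 5 (0.0523 to 0.0746).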

How the results depend on the processing

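The 12 h result was the most stable. All 8 genes lower at 12 h passed under each alternative that kept the adjusted p rule, and without any one library (8 to 8). Counts of the 10 genes passing moved as follows. At 1 h the count was 0, and 1 with DESeq2 or with no filter on low counts. At 6 h it was 6, and 3 with limma on log2(FPKM + 1) and no filter. At 18 h it was 2, then 1 with no filter or with all genes of the table, 7 when all 30 libraries shared 1 estimate of the spread, and 0 with limma on FPKM (pseudocount 1, 0.1, or no filter) and with the replicate block. At 24 h it was 0, and 1 with DESeq2, no filter or all 30 libraries. With the added fold threshold of the study the counts were 1 at 6 h, 1 at 12 h, 0 at 18 h, 1 for DMSO over time (9 without it), 0 for the change from 6 h to 12 h (7) and 2 for that from 12 h to 24 h (8).

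Leaving out 1 library at a time gave 0 to 1 genes at 1 h, 4 to 6 at 6 h, 0 to 7 at 18 h and 0 to 1 at 24 h. For list genes it gave 0 to 2 at 1 h, 18 to 32 at 6 h, 0 to 15 at 18 h and 1 to 8 at 24 h. For all genes it gave 184 to 677, 1562 to 3125, 5135 to 6151, 190 to 2199 and 265 to 996 at 1, 6, 12, 18 and 24 h.

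List genes passing at 6 h were 27, and 13 with limma without a filter and 0 with the fold threshold. At 12 h they were 53, and 1 with the fold threshold. At 18 h they were 4, then 2 with all genes of the table, 26 with all 30 libraries, 1 with limma without a filter, and 0 with the replicate block or the fold threshold. At 24 h they were 4, then 10 with DESeq2, 7 with no filter on counts, and 2 with limma without a filter or with the fold threshold. For DMSO over time 52 became 3 with the fold threshold, for the change from 6 h to 12 h 29 became 0, and for that from 12 h to 24 h 51 became 3.

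All genes passing at 1 h were 360, then 580 with no filter, 178 with all 30 libraries, 212, 208 and 35 with limma (pseudocount 1, 0.1, and no filter) and 37 with the fold threshold. At 6 h 2565 became 1633, 1611 and 1034 with limma and 153 with the fold threshold, and at 12 h 6330 became 660 with it. At 18 h 949 became 1488 with DESeq2, 3855 with all 30 libraries, 454 with limma without a filter, 478 with the replicate block and 173 with the fold threshold. At 24 h 881 became 476, 463 and 190 with limma and 112 with the fold threshold. With that threshold 8058 became 1625 for DMSO over time, 2458 became 256 for the change from 6 h to 12 h, and 5086 became 805 for that from 12 h to 24 h.

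Signs turned only for differences that did not pass. *Hsp90ab1* at 1 h was at -0.0010 with DESeq2 and with its size factors, -0.0015 with no filter, -0.0035 with all genes of the table, -0.00090 with all 30 libraries, and -0.026 with each of the limma settings. At 24 h it was at 0.027 with each of the limma settings. With 1 library left out the log2 differences ran from -0.016 to 0.017 (*Hsp90ab1*, 1 h), -0.020 to 0.041 (*Hsp90ab1*, 24 h), -0.053 to 0.053 (*Hsp90aa1*, 1 h), -0.11 to 0.00030 (*Hsp90aa1*, 24 h), -0.016 to 0.020 (*Dnaja1*, 1 h), -0.18 to 0.058 (*Dnaja1*, 18 h), -0.51 to 0.44 (*Hspa1a*, 24 h), -0.091 to 0.35 (*Hspa1b*, 1 h), -0.16 to 0.047 (*Hspa1b*, 24 h) and -0.043 to 0.0024 (*Hspd1*, 1 h).

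Replicate numbers recur in every group. Deviations of libraries with the same number had correlations from -0.13 (18 h) to 0.10 (12 h). At 12 h all 3 were above 0 (0.019, 0.072 and 0.10). The library of the same number was the best match for 2 of 3 at 12 h and at 24 h, and for 0 or 1 in the other comparisons. The labels do not say what the number stands for, and 3 pairs cannot decide whether it marks a shared litter or batch. Used as a block, the number moved the 18 h count from 2 to 0 of the 10 genes and ended the call of *Hspa8* at 6 h (log2 -0.15, adjusted p by edgeR 0.0659). No other call on the 10 genes changed under the block.

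Depth limits *Hspa1a* and *Hspa1b*, whose counts per library reached 20 and 85 at most. With 3 libraries a group the spread, not the depth, limits the abundant genes, and p-values measure only the spread between these embryos. The causes of the differences between settings were not tested.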
